A study of Mus musculus and Homo sapiens with 9 samples.

Results

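The ETS family transcription factors were followed across the RNA-seq data of the study, in which the cofactor IRF2BP2 was depleted in T-ALL cells and deleted in mouse T cells. The members were set by a list of gene names, drawn up with earlier results of these data known: ERG, FLI1, ETS1, ETS2, ELF1, ELF2, ELF4, ETV6, GABPA and ELK3, and the mouse genes of the same symbols. All 10 were found in each table, among 56105 rows with an annotated gene in human and 42462 in mouse, and all 10 passed the filter on low counts in both, so that they were part of the 15819 human and 15350 mouse genes tested. In J.gamma1 cells, a T-ALL line derived from Jurkat, 2 libraries carried a control hairpin (sh-NC) and 2 a hairpin against IRF2BP2 (sh-IRF2BP2); the labels do not say which of the hairpins against IRF2BP2 was used. The mouse libraries came from CD3+ T cells that had been sorted magnetically from spleen. Of these, 2 were from knockout mice (Vav-iCre+/-;Irf2bp2 fl/fl) and 3 were from controls, which the labels call wild type and the study describes as Vav-iCre-/-;Irf2bp2 fl/fl, so that by the study's account both groups carried the floxed alleles. Vav-iCre is active throughout the blood lineage rather than in T cells alone, J.gamma1 is a single cell line, and the labels give neither the age of the mice nor whether replicates were separate cultures or animals. The study gives an age for the mice of its flow cytometry and does not restate it for those sequenced. The tests thus set group differences against the spread between these libraries, and reach no further than them.

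ETS factors share a DNA-binding domain that reads a GGAA core, and they differ in the parts of the protein that activate or repress transcription and in the partners they take. In blood they work beside RUNX and GATA factors: FLI1 and ERG act in stem cells, megakaryocytes and vessels, ETS1, ELF1 and ELF4 in lymphocytes, GABPA in genes that every cell uses, and ETV6 and ELK3 mainly as repressors. IRF2BP2 is a nuclear cofactor that was first found as a partner of the transcription factor IRF2.

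Total counts lay between 26648204 and 31120236 in the J.gamma1 libraries and between 16668577 (control replicate 3) and 37177523 in the mouse libraries. IRF2BP2 fell from 204 and 199 to 79.0 and 93.8 CPM (counts scaled to a common library size, here with TMM factors), a log2 fold change of -1.22 with an adjusted p of 0.0023 in edgeR's quasi-likelihood test, and Irf2bp2 had 4145, 4594 and 1915 counts in the controls and 0 in both knockout libraries. T-cell markers, summed over 17 genes, were at 3210 to 3430 CPM with sh-NC and 3720 to 3820 CPM with sh-IRF2BP2 (3 called higher and 1 lower by edgeR) and at 6770 to 9630 CPM in mouse cells. The genes of the list were uneven: with sh-NC, LCK was at 613 CPM, CD4 at 6.40 and CD8A at 2.29. By the thresholds given below, 5.46% of all genes tested in J.gamma1 cells were called higher and 5.01% lower. Of the other lists in J.gamma1 cells, B-cell genes summed to 65.9 to 82.4 CPM with sh-NC against 32.6 to 34.5 with sh-IRF2BP2 (1 of 4 tested called lower), endothelial genes to 110 to 136 against 86.1 to 99.9, erythroid genes to 8.07 to 12.1 against 8.93 to 12.9 and myeloid genes to 0.309 to 1.16 against 1.80 to 1.92. Their part in the members' values was not tested, and LYZ, CSF1R, S100A8, MPO, ALAS2, MS4A1, CDH5 and TEK were at 0.

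The promoters of 3 members that changed in J.gamma1 cells are shown first, since the factors bind DNA of this kind themselves. The windows of ERG, ELF4 and ELK3 run from 250 bases before to 49 bases after the annotated start of the canonical transcript (hg38, GENCODE annotation), 5′ to 3′ on the strand of the gene, with the ETS word GGAAGT, or its reverse complement ACTTCC, in capitals. They lie at chr21:38498428-38498727 on the minus strand for ERG, chrX:130110448-130110747 on the minus strand for ELF4 and chr12:96194125-96194424 on the plus strand for ELK3. The annotated ERG gene reaches further upstream than its window, to position 38661780, and the start used in these cells was not measured.
ERG: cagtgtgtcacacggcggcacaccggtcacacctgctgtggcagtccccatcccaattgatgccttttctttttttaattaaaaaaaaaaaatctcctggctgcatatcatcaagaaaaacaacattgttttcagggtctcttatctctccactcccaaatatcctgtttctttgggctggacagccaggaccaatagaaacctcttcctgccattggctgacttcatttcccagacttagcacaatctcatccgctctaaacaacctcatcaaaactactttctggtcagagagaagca
ELF4: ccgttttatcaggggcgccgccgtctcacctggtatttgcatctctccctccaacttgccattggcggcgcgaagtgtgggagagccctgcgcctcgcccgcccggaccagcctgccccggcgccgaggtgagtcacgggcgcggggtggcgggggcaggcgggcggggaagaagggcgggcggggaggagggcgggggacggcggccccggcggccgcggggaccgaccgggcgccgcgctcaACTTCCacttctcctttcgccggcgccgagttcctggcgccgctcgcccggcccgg
ELK3: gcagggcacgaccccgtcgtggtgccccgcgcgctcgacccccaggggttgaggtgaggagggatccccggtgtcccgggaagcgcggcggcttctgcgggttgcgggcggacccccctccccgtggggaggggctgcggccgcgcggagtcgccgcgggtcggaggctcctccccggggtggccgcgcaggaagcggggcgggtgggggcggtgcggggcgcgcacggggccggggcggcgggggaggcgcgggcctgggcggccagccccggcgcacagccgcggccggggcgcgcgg
The ELF4 window held the word 1 time, as ACTTCC, and those of ERG and ELK3 did not hold it. The word is longer than the GGAA core, and the windows of ERG and ELK3 do hold that core, read on both strands. A window without the word is thus not a window without an ETS core. Of the other members' windows described here, those of ETS2, ELF1 and GABPA held it 1 time each and those of ETS1, ELF2 and ETV6 did not. Over all 20046 human promoters of this length, searched on both strands, 24.2% did. The 3 windows shown also differed in base composition, with 44.3% G or C in the ERG window, 76.0% in ELF4 and 83.7% in ELK3. A second ETS word, CCGGAA, occurred among these 9 windows in GABPA alone (22.7% of all promoters), where it overlaps the GGAAGT match and is the same site. The RUNX word TGTGGT occurred in ETS1 alone, 2 times (10.7% of all promoters). The choice of GGAAGT was made after the windows had been read, and the matches are descriptions of these windows.

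In sh-NC cells the level per transcript length, in TPM (counts divided by exon length and scaled to a common total), ran over more than 2 orders of magnitude within the family. ETS1 was at 321 and 274 TPM and ELF1 at 191 and 167 TPM, and these 2 genes made up 60.8% and 58.0% of the summed TPM of the 10 members. Then followed ETS2 (97.5 TPM ± 3.31, SD, n = 2), GABPA (61.5 ± 6.04), FLI1 (56.7 ± 1.56), ETV6 (50.1 ± 0.697), ELF2 (24.8 ± 0.607), ELF4 (18.4 ± 0.358), ELK3 (13.9 ± 1.15) and ERG (1.66 ± 0.0625). GABPA and FLI1 overlapped between libraries, and every other neighbour in this order was separated from the next in both libraries. ERG stood at the 16.1 percentile of the TPM of all genes tested, whereas ETS1 stood at the 97.4 percentile.

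**Figure D1:**
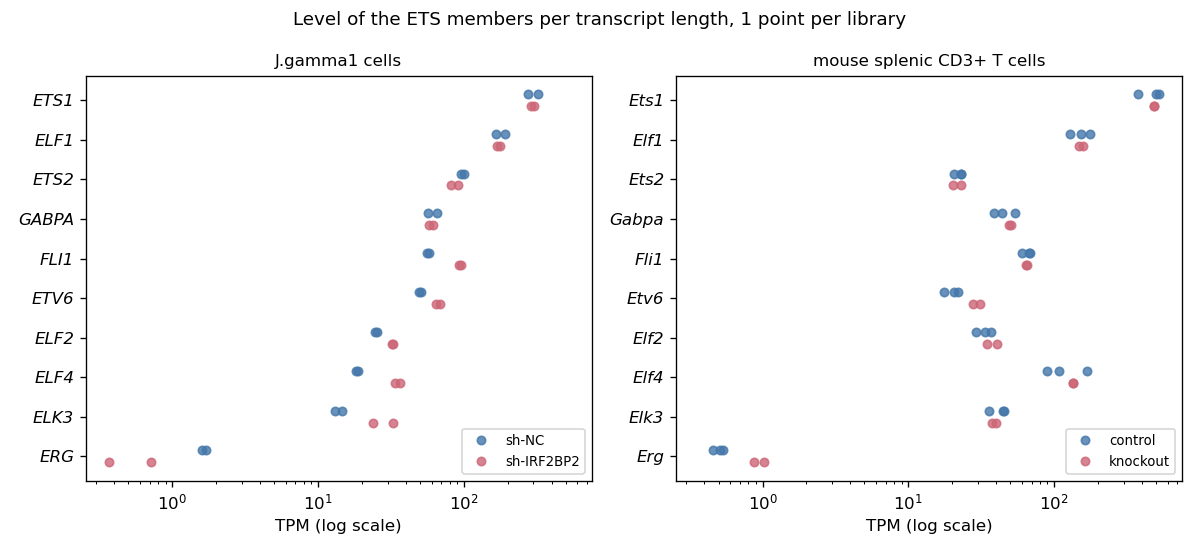
Level of each member in TPM (x axis, log scale) in J.gamma1 cells and in mouse splenic CD3+ T cells, with 1 point per library and the members in the order of their sh-NC level. ETS1 and ELF1 lead in both panels, ERG is the lowest in every library, and FLI1, ELF4 and ELK3 shift to the right in the sh-IRF2BP2 libraries.

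In J.gamma1 cells with IRF2BP2 depleted, FLI1, ELF4 and ELK3 rose 1.63-fold to 2.0-fold and ERG fell 3.11-fold, while ETS1, ELF1 and GABPA overlapped between the groups. Of the 10 members, 3 (30%) were called higher and 1 (10%) lower, where a call required a change of 0.5 or more in log2 units with adjusted p below 0.05, beside 5.46% of all genes tested called higher and 5.01% called lower. The median log2 fold change of the members was 0.16, and that of all genes tested was 0.0067. The 2 sh-IRF2BP2 libraries lay above both sh-NC libraries for 5 members and below them for 2, whereas 29.6% of all genes lay wholly above and 28.7% wholly below. Separation of this kind was thus common over all genes.

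ERG and FLI1 are close relatives, and both are known as oncogenes of blood cells; here they moved in opposite directions. ERG (ENSG00000157554, chr21:38380027-38661780, minus strand) had 88 and 96 counts with sh-NC and 21 and 40 counts with sh-IRF2BP2. This was 3.25 CPM ± 0.215 (SD, n = 2) against 1.04 ± 0.450, with both depleted libraries lower and replicate 1 the lower of them. The log2 fold change was -1.64 (SE 0.405, 95% interval -2.57 to -0.70), with an adjusted p of 0.041 by edgeR. ERG was the member with the fewest counts, and its call was lost when sh-IRF2BP2 replicate 1 was left out (log2 fold change -1.28, adjusted p = 0.15 by edgeR) or when genes with at least 1 count in any library entered the test (adjusted p = 0.087).

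FLI1 (ENSG00000151702, chr11:128686535-128813267, plus strand) had 3053 and 3653 counts with sh-NC and 5589 and 5699 counts with sh-IRF2BP2. In CPM this was 118 ± 0.119 against 193 ± 0.974 (SD, n = 2), so that the replicates were close and the groups far apart. The log2 fold change was 0.71 (SE 0.114, 95% interval 0.45 to 0.97; adjusted p = 0.0092 by edgeR), and without sh-IRF2BP2 replicate 1 it was 0.69 with an adjusted p of 0.052. In TPM, FLI1 went from 55.6 and 57.8 to 92.1 and 96.2, and from the fifth to the third place in the family, above ETS2 at 90.7 and 82.2. The place with sh-NC depends on the gene length used, since by the longest transcript FLI1 lay above GABPA in both libraries. The ratio of FLI1 to ERG in TPM was 32.7 and 35.9 with sh-NC and 251 and 134 with sh-IRF2BP2.

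ELF4, a factor of the ELF1 group with roles in the quiescence of CD8+ T cells and in NK cells, had 669 and 749 counts with sh-NC and 1339 and 1413 counts with sh-IRF2BP2. It rose 1.88-fold, from 25.0 CPM ± 1.20 to 47.0 ± 1.38 (SD, n = 2; log2 fold change 0.91, SE 0.128, 95% interval 0.61 to 1.21; adjusted p = 0.0056 by edgeR). Its log2 fold change stayed between 0.86 and 0.96 over the 13 alternative settings, and ELF4 was the member that was called higher under each of them. ELF1 and ELF2, its relatives, were not called. ELF1, which acts at many T-cell genes, had 224 and 188 CPM with sh-NC and 195 and 198 CPM with sh-IRF2BP2, with the depleted libraries inside the range of the controls. Its log2 fold change was -0.065 (95% interval -0.37 to 0.24). ELF2 had 55.1 and 54.8 CPM against 72.2 and 68.7 CPM, both depleted libraries higher, at a log2 fold change of 0.36 (SE 0.114) and an adjusted p of 0.084 by edgeR. The annotated span of ELF2, introns included, overlaps that of NOCT on the opposite strand over 17828 bases and that of PPP1R14BP3 on its own strand. A processed copy, ELF2P1, had a mean of 27.5 counts. The overlap of exons was not measured, and the counting is not stated to use strand. Whether reads of these genes entered the count of ELF2 was not tested.

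ELK3, a ternary complex factor that binds beside SRF and represses until it is phosphorylated, had 467 and 478 counts with sh-NC and 1142 and 811 counts with sh-IRF2BP2. It rose 2.0-fold, from 16.7 CPM ± 1.86 to 33.4 ± 8.28 (SD, n = 2; log2 fold change 1.00, SE 0.198, 95% interval 0.54 to 1.45; adjusted p = 0.020 by edgeR). The depleted libraries were both higher but differed among themselves, at 39.2 and 27.5 CPM, and without replicate 1 the log2 fold change was 0.69 with an adjusted p of 0.10, while with genes of at least 1 count in any library the adjusted p was 0.075. ETV6, a repressor that is needed for hematopoietic stem cells in the bone marrow, had 94.7 and 92.8 CPM against 121 and 124 CPM, both depleted libraries higher. Its log2 fold change of 0.38 (SE 0.111, 95% interval 0.13 to 0.64) had an adjusted p of 0.065 by edgeR, and 0.032 by DESeq2, which is under the threshold for p but not past that for the fold.

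ETS1, the most abundant member, had 606 and 497 CPM with sh-NC and 535 and 542 CPM with sh-IRF2BP2, so that the groups overlapped and the spread was in the controls. Its log2 fold change was -0.035 (95% interval -0.36 to 0.29). ETS2, which like ETS1 is activated by MAP kinases, had 131 and 120 CPM against 117 and 102 CPM, both depleted libraries lower, at -0.19 (95% interval -0.49 to 0.096; adjusted p = 0.36 by edgeR). GABPA, the DNA-binding subunit of the GABP complex, had 99.7 and 83.3 CPM against 91.6 and 82.8 CPM (log2 fold change -0.070, 95% interval -0.38 to 0.24). The annotated span of GABPA overlaps that of ATP5PF on the opposite strand over 1104 bases, and a processed copy, GABPAP, had a mean of 68.0 counts. The share of ETS1 in the summed TPM of the members was 38.1% and 36.1% with sh-NC and 33.3% and 34.5% with sh-IRF2BP2.

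**Figure D2:**
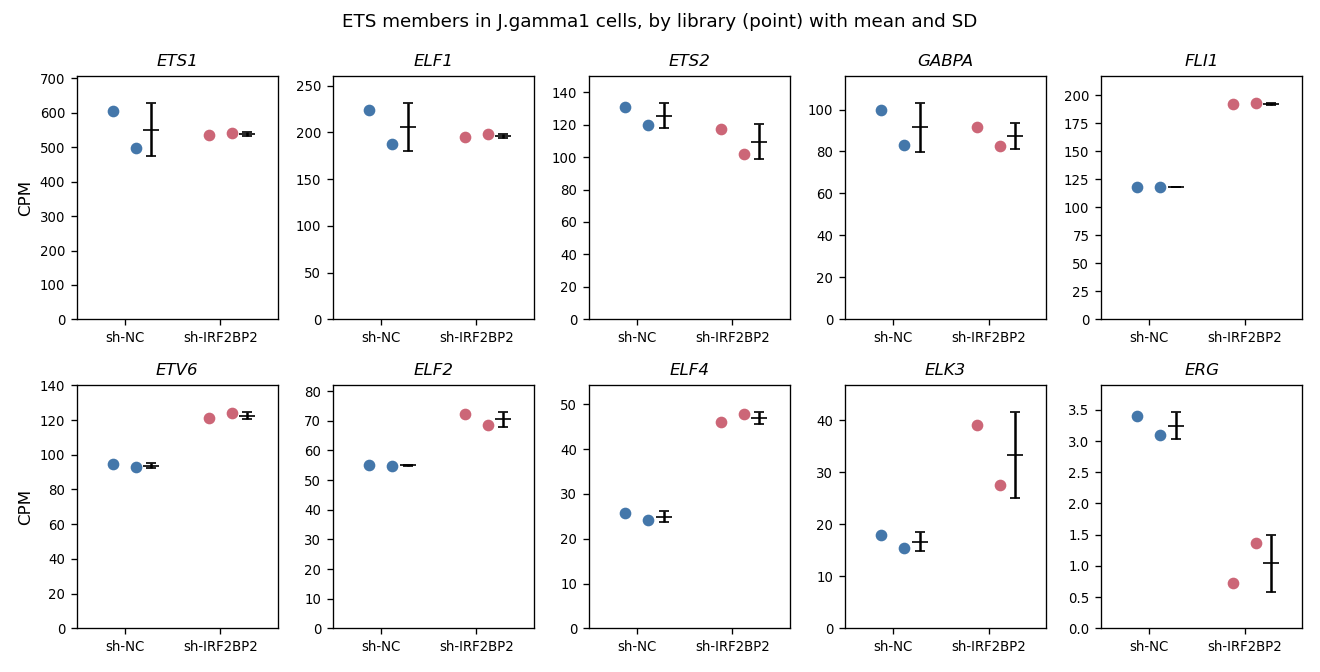
CPM (y axis, from 0) of each member in the 2 sh-NC (blue) and 2 sh-IRF2BP2 (red) libraries of J.gamma1 cells, with 1 point per library and the mean and SD in black. FLI1, ELF4 and ELK3 are higher and ERG is lower in both sh-IRF2BP2 libraries, ETS1, ELF1 and GABPA overlap, and the 2 sh-IRF2BP2 points of ELK3 stand at 39.2 and 27.5 CPM.

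Some of the members lie close together, in 2 neighbouring pairs. On chromosome 11, ETS1 and FLI1 are 98976 bases apart and transcribed away from each other, and the CPM of FLI1 rose while that of ETS1 overlapped between the groups. On chromosome 21, ERG and ETS2 are 143402 bases apart, also transcribed away from each other, and ERG fell while ETS2, with both depleted libraries lower at -0.19, was not called. The difference within a pair was not tested.

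Some members carry the word AGGTCTAA, or a part of it, in the 3' UTR, and genes that carry it were called lower in different shares in J.gamma1 cells. Among tested genes with an annotated 3' UTR, 22.4% of the 205 with AGGTCTAA were called lower, 17.8% of the 897 with GGTCTAA or AGGTCTA alone, 8.96% of the 915 with GGTCTA alone and 4.33% of the 10682 with none of these. The shares called higher were 2.93%, 4.79%, 6.99% and 6.64% in the same order, and the median log2 fold changes were -0.22, -0.10, -0.02 and 0.01. The word had been picked out earlier from these same libraries, so the shares are a description, and its part in any member's change was not tested. The classes were not matched for the length of the 3' UTR, and a longer 3' UTR has more places for a word. ELF1 holds the whole word and FLI1 the inner part; both sites are shown with 30 bases of the transcript, in the 3' UTR of the canonical transcript, with the word in capitals. The ELF1 site is at chr13:40932139-40932168 on the minus strand and the FLI1 site at chr11:128812685-128812714 on the plus strand (hg38).
ELF1: attatgtttagAGGTCTAAtgctatgtttt
FLI1: gcaaagcgagctGGTCTAtccagactggtc
ETS1 holds GGTCTA 2 times, and the other 7 members, ERG among them, hold none of these words in the 3' UTR. The log2 fold changes of the carriers were -0.065 (ELF1), 0.71 (FLI1) and -0.035 (ETS1), and so few genes cannot show what the word does.

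In mouse splenic CD3+ T cells the family had the same leader. Ets1 was at 498, 377 and 524 TPM in the controls, 48.1% of the summed TPM of the members on average (SD 2.03, n = 3). Elf1 (153 TPM ± 23.2, SD, n = 3) and Elf4 (122 ± 40.8) followed and overlapped, and then came Fli1 (65.1 ± 4.03). Gabpa (45.5 ± 7.74), Elk3 (41.8 ± 5.27) and Elf2 (33.1 ± 3.96) formed a run in which each overlapped the next, as did Ets2 (22.1 ± 1.29) and Etv6 (19.9 ± 2.18). Erg was the lowest again, at 0.50 TPM ± 0.0407 or 10 to 24 counts a library. Elf4 held the third place in mouse controls, whereas ELF4 held the eighth in sh-NC cells; cell type, species and annotation differ between the tables, so these levels stand side by side without a test.

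In the Irf2bp2 knockout no member was called, where edgeR had to give a change of 1 or more in log2 units with adjusted p below 0.05. Over all genes tested, 2.47% were called higher and 0.111% lower. Without the fold threshold the count was also 0, with DESeq2 it was 0, and at an unadjusted p under 0.05 it was 1, which was Etv6. The median log2 fold change of the members was -0.0083, beside -0.018 for all genes tested. Both knockout libraries lay above all 3 controls for 2 members (Etv6 and Erg) and below them for 2 (Fli1 and Elk3), where 18.2% of all genes lay wholly above and 17.8% wholly below.

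Etv6 had 38.3, 47.3 and 44.1 CPM in the controls and 56.3 and 61.8 CPM in the knockout libraries, with both knockout values above the highest control. The log2 fold change was 0.45 (SE 0.140, 95% interval 0.11 to 0.78), and the adjusted p was 0.19 by edgeR. ETV6 was thus higher in all depleted libraries of both tables, and was called in neither.

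Erg had 24, 22 and 10 counts in the controls and 39 and 42 counts in the knockout libraries. This was 0.627 CPM ± 0.0197 (SD, n = 3) against 1.10 ± 0.116 (n = 2), with both knockout libraries higher, at a log2 fold change of 0.81 with an interval from -0.23 to 1.85 (adjusted p = 0.44 by edgeR). Of the marker lists, the erythroid and progenitor sums were higher and the T-cell sum lower in both knockout libraries, and the other sums overlapped. Calls over all genes tested were 2.47% higher and 0.111% lower. The summed CPM of 15 erythroid genes was 610 to 2290 in the controls and 4780 to 6640 in the knockout libraries, with 8 of the 15 called higher, and that of 6 progenitor genes was 14.1 to 41.5 against 47.5 to 60.7, with 0 of the 5 tested called by edgeR and 3 at an unadjusted p under 0.05. T-cell genes summed to 8850 to 9630 CPM against 6770 to 7100 CPM (0 of 17 called by edgeR, 10 at an unadjusted p under 0.05), megakaryocyte and platelet genes to 7.40 to 16.0 against 11 to 15.4, endothelial genes to 154 to 214 against 162 to 168, and B-cell genes to 30.2 to 259 against 30.1 to 113. Plasma-cell genes summed to 411 to 1150 CPM against 1130 to 1500 (1 of 6 called higher, 3 at an unadjusted p under 0.05), myeloid genes to 45.5 to 417 against 97.4 to 153 and NK-cell genes to 143 to 228 against 135 to 240 (0 of 6 called, 4 at an unadjusted p under 0.05). The part of these cells in the values of Erg or of any other member was not tested. In bulk RNA, fewer cells of a type and less RNA per cell cannot be told apart.

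Fli1 had 85.1, 81.5 and 80.3 CPM in the controls and 75.9 and 76.4 CPM in the knockout libraries, a log2 fold change of -0.11 (95% interval -0.38 to 0.16; adjusted p = 0.70 by edgeR). The CPM were all lower, but in TPM the knockout libraries (64.5 and 65.5) lay within the controls (60.5 to 68.0). Elk3 had 75.5, 62.9 and 68.2 CPM against 57.5 and 61.1 CPM, at -0.22 (95% interval -0.53 to 0.097; adjusted p = 0.50 by edgeR), and in TPM it overlapped too. The annotated span of Elk3, introns included, shares 19658 bases with that of Cdk17 on the opposite strand. The ratio of Fli1 to Erg in TPM was 130, 133 and 128 in the controls and 74.1 and 64.2 in the knockout libraries.

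For the other 6 members the groups overlapped in CPM. Ets1 had 1540, 1230 and 1500 CPM against 1380 and 1370 CPM, and Elf1 had 376, 336 and 400 CPM against 359 and 335 CPM. Elf4 had 243, 213 and 349 CPM in the controls, with the shallowest library the highest, and 280 and 278 CPM in the knockout libraries. Ets2 (43.6, 51.2 and 44.7 CPM against 39.8 and 44.8), Elf2 (117, 107 and 119 against 113 and 130) and Gabpa (90.8, 85.2 and 104 against 94.3 and 96.4) likewise crossed. Their log2 fold changes lay between -0.14 (Ets2) and 0.086 (Elf2), with standard errors of 0.129 to 0.219. A change such as that of FLI1 in J.gamma1 cells lies outside the interval of Fli1 (upper bound 0.16), and that of ELK3 outside the interval of Elk3 (upper bound 0.097); the difference between the tables was not tested.

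**Figure D3:**
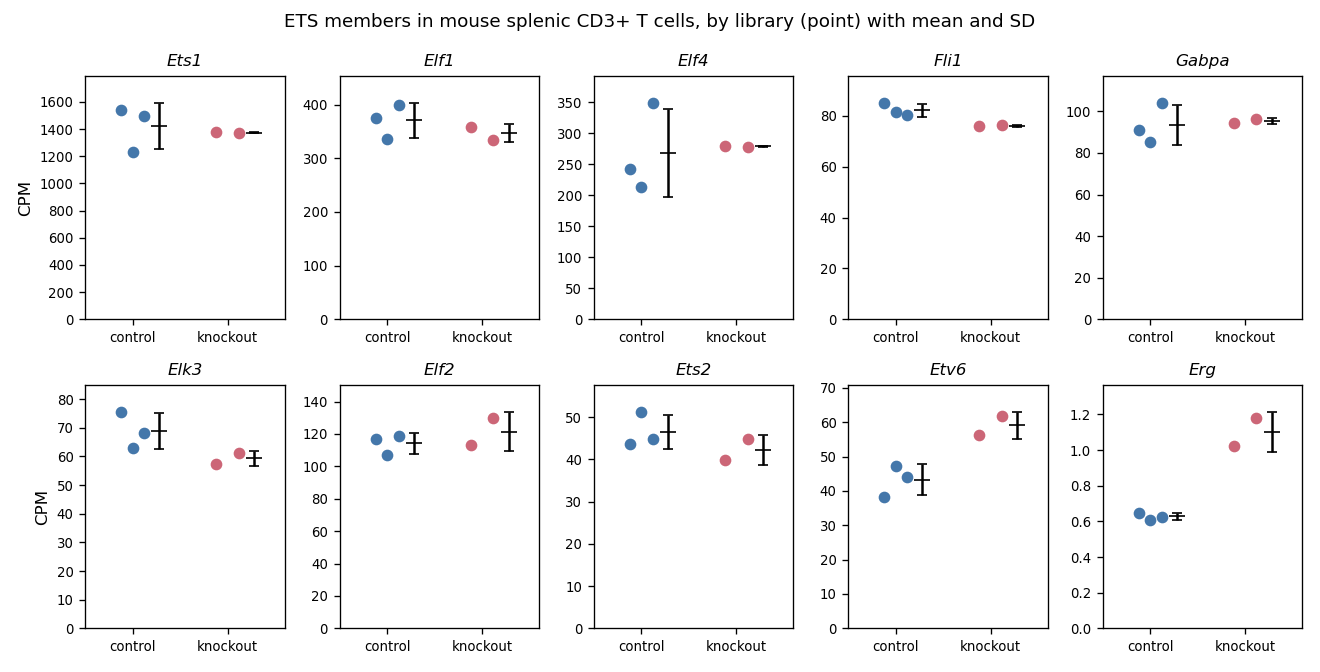
CPM (y axis, from 0) of each member in the 3 control (blue) and 2 knockout (red) libraries of mouse splenic CD3+ T cells, with 1 point per library and the mean and SD in black. Etv6 and Erg are higher and Fli1 and Elk3 lower in both knockout libraries, the other 6 members overlap, and the controls of Elf4 spread from 213 to 349 CPM.

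**Figure D4:**
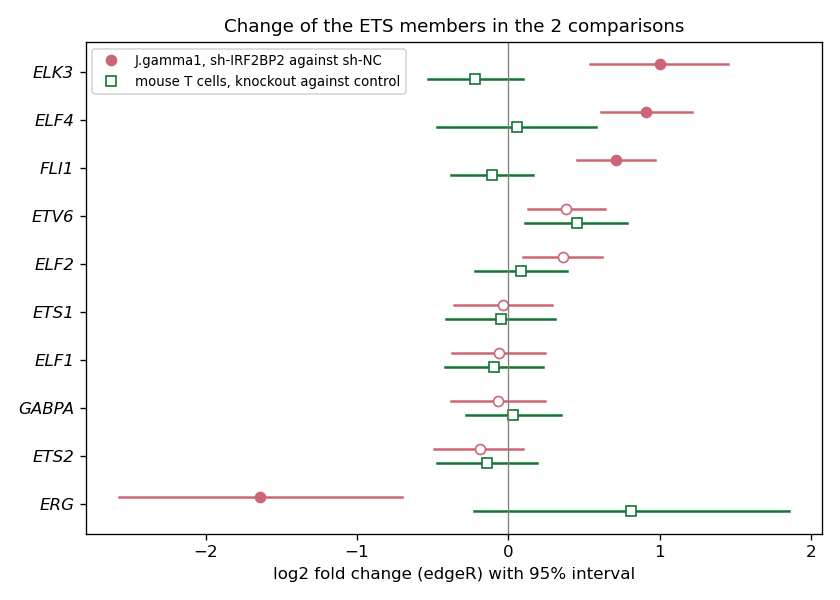
Log2 fold change of each member with its 95% interval (x axis), for sh-IRF2BP2 against sh-NC in J.gamma1 cells (circles) and for knockout against control in mouse T cells (squares), filled where the member was called. ELK3, ELF4 and FLI1 lie right of 0 and ERG left of 0 in J.gamma1 cells, and the squares of the mouse are all open.

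The rest of the family was described by a list of 18 further ETS genes. In J.gamma1 cells, 9 of the 18 were tested and 3 were at 0 in every library. ETV5, a factor induced by receptor tyrosine kinase signalling, fell from 43.2 CPM ± 1.04 to 15.7 ± 0.298 (SD, n = 2; log2 fold change -1.46, adjusted p = 0.0014 by edgeR). EHF, an epithelial ETS factor, had 0 counts in both sh-NC libraries and 27 and 30 counts in the sh-IRF2BP2 libraries, at least 8.39-fold higher when 3 counts per library are taken as the limit that a count of 0 allows (adjusted p = 0.0090 by edgeR). These were the calls, 1 in each direction (11.1% each), beside 5.46% of all genes tested called higher and 5.01% lower. The median of the 9 was 0.21, beside 0.0067 for all genes tested. EHF passed the filter on low counts through the sh-IRF2BP2 libraries alone, so that only a rise could be called. DESeq2 gave no adjusted p for it, and with at least 10 counts in every library it was not tested. In mouse T cells 9 were tested and none was called by edgeR (0 at an unadjusted p under 0.05, 0 by DESeq2), with a median of -0.086.

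Of 22 partners and cofactors of ETS factors, 21 were tested in J.gamma1 cells, with 4 (19%) called higher and 3 (14.3%) called lower. Among all genes tested, 5.46% were called higher and 5.01% lower. The median of the partners was 0.26, beside 0.0067 for all genes tested. The RUNX complex was split: RUNX1, which binds beside ETS factors at many blood enhancers, rose from 571 CPM ± 82.6 to 901 ± 63.3 (log2 fold change 0.66, adjusted p = 0.032 by edgeR), and its partner CBFB fell from 233 CPM ± 12.4 to 115 ± 4.79 (-1.02, adjusted p = 0.0030). The acetyltransferase CREBBP rose at 1.00 (adjusted p = 0.014), and so did SRF, the partner of ELK3, at 0.57 (adjusted p = 0.040) and GABPB2, a partner of GABPA, at 0.62 (adjusted p = 0.027). LMO1, a T-ALL oncogene, fell at -1.33 (adjusted p = 0.019) and the E protein gene TCF12 at -0.61 (adjusted p = 0.023). The calls of RUNX1 (adjusted p = 0.19 and 0.068), TCF12 (0.12 and 0.11) and GABPB2 (0.080 and 0.12) were lost when sh-IRF2BP2 replicate 1 or 2 was left out, and that of SRF without sh-IRF2BP2 replicate 1 (0.31) or sh-NC replicate 2, where its fold was under the threshold. CBFB was called under each of the 13 alternatives. In mouse T cells 22 were tested and 1 (4.55%) was called higher, beside 2.47% of all genes tested. The erythroid markers were high in the knockout libraries, and their part in the value of Tal1 was not tested. Tal1, a factor of the erythroid and stem-cell program, rose from 9.22 CPM ± 6.15 (SD, n = 3) to 78.9 ± 14.3 (n = 2; log2 fold change 3.07, adjusted p = 0.027 by edgeR). Its call was lost without control replicate 1 (log2 fold change 2.88, adjusted p = 0.13), knockout replicate 1 (3.23, adjusted p = 0.095) or knockout replicate 2 (2.86, adjusted p = 0.16), and without control replicate 2 it was called at 3.77.

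Of 21 genes known for ETS sites in their regulatory DNA, 19 were tested in J.gamma1 cells, with 5 (26.3%) called higher and 2 (10.5%) called lower. The shares over all genes tested were 5.46% and 5.01%. The median of the 19 was -0.10, beside 0.0067 for all genes tested. The receptor chain IL2RA had 2 counts in each sh-NC library and 57 and 94 counts in the sh-IRF2BP2 libraries, a ratio of 36.7 with a counting interval of 14.0 to 136 (adjusted p = 0.0030 by edgeR). Like EHF, IL2RA passed the filter on low counts through the sh-IRF2BP2 libraries alone, so that only a rise could be called. With at least 10 counts in every library it was not tested. IL2RB rose from 1.73 CPM ± 0.171 to 5.39 ± 0.192 (log2 fold change 1.64, adjusted p = 0.012), KLF2, a factor of quiescent T cells, from 20.4 CPM ± 4.01 to 45.4 ± 4.98 (1.16, adjusted p = 0.0069), and FOS from 0.525 CPM ± 0.0324 to 2.43 ± 1.55 (2.2, adjusted p = 0.043). IL7R, the receptor for IL7, fell from 8.40 CPM ± 0.624 to 4.03 ± 0.303 (-1.06, adjusted p = 0.028) and the survival gene MCL1 from 182 CPM ± 6.56 to 104 ± 1.05 (-0.80, adjusted p = 0.0059). The call of IL7R was lost without sh-IRF2BP2 replicate 1 (adjusted p = 0.12) or 2 (0.064), and that of FOS without replicate 2 (log2 fold change 1.34, adjusted p = 0.32), whereas without replicate 1 it was at 2.71. In mouse T cells none of the 20 tested was called by edgeR (3 at an unadjusted p under 0.05, 0 by DESeq2), with a median of -0.12.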

How the data were processed

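RNA-seq libraries of J.gamma1 cells and of mouse splenic CD3+ T cells were analysed, and the group of each was taken from its label. The values the authors deposited were raw counts, whole numbers for each Ensembl gene and library that were neither normalized nor pooled. The submitters' processing notes name HISAT2 2.2.0 and StringTie, with hg38 and mm10. The study names StringTie for assembly and abundance; how its output was turned into counts, and whether strand was used, is not given in the sources used here. Annotated rows (GENCODE; mouse annotation on GRCm38) held at least 97.9% of the counts.

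Low genes were removed with filterByExpr, libraries were scaled by TMM, and each table was tested by the quasi-likelihood test of edgeR 4.0.16 (R 4.3.3), with condition as the sole term and Benjamini-Hochberg adjustment over all genes tested. The biological coefficient of variation was 0.165 in J.gamma1 cells (2 residual degrees of freedom) and 0.271 in mouse cells (3). TPM used the union length of annotated exons. Replicates differed by more than sampling noise (chi-square per gene of at least 18.2), and each library counted as 1. The alternatives were the test of DESeq2 1.42.0, scaling by RLE or by the upper quartile, a looser filter (1 count in some library) and a stricter one (10 counts in each), the counts divided by 2, keeping unannotated rows, no fold threshold, the replicate number as a block, and each library left out. The scripts were tested on simulated data. Promoters and 3' UTR words were read in Python 3.11.15.

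The members and the lists were chosen with earlier results of these data known. The text names the 10 members, the targeted gene, genes that overlap or copy a member, and at most 4 called genes of each list in each direction. Intervals on ratios and limits of a count of 0 cover counting error only. Some items are not reported here.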

Additional observations from a re-analysis of the deposited data

Results flagged for a closer look

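For 3 members the libraries of the treated group lay wholly on one side of the controls in CPM in J.gamma1 cells and wholly on the other side in mouse T cells. Separation was common over all genes, with 29.6% wholly above and 28.7% wholly below in J.gamma1 cells. In mouse T cells the shares were 18.2% and 17.8%. The share of all genes that separated in opposite directions in the 2 tables was not computed, so the 3 members are a description. The difference between the tables was not tested, and cell type, species and the kind of depletion differ between them. ERG had a log2 fold change of -1.64 in J.gamma1 cells and Erg 0.81 in mouse T cells, the latter from 10 to 42 counts a library. FLI1 had 0.71 and Fli1 -0.11, and ELK3 had 1.00 and Elk3 -0.22. The mouse values of these genes were not called by edgeR, and those of Fli1 and Elk3 overlapped between the groups in TPM.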

How the results depend on the processing

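In J.gamma1 cells, 3 members called higher and 1 lower was the count under DESeq2, RLE and upper-quartile scaling, at least 10 counts in every library, all rows, counts divided by 2, no fold threshold and the replicate block. With at least 1 count in any library, 2 were called higher (FLI1 and ELF4) and 0 lower; 27082 genes were then tested, with 319 called higher and 396 lower among them. With each library left out in turn the counts ran from 1 to 3 higher and from 0 to 1 lower, and the lower values came without sh-IRF2BP2 replicate 1, when ELF4 alone was called; the remaining library of the group was then assumed to vary like the other group. The labels do not say whether the replicate numbers pair the libraries, and 2 pairs are too few to tell; the correlation of deviations was 0.264 over 2 pairs in J.gamma1 cells and -0.00179 in mouse cells; the block moved the calls over all genes from 864 to 1293 higher and from 793 to 1174 lower in J.gamma1 cells, and from 379 to 407 higher and 17 to 35 lower in mouse cells. With the block the members called were 3 and 1 in J.gamma1 cells and 0 in mouse cells. In mouse cells 0 members were called under each setting tried, although the calls over all genes ran from 6 (without control replicate 1) to 735 (DESeq2) higher.

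Values that changed sign were close to 0 and came from leaving out 1 library; the cause was not tested. With each library left out, ETS1 ran from -0.17 to 0.11, ELF1 from -0.19 to 0.060 and GABPA from -0.20 to 0.061, and the positive values came without sh-NC replicate 1. Ets1 ran from -0.13 to 0.020 (the latter without control replicate 1), Elf4 from -0.065 (without control replicate 2) to 0.29, Gabpa from -0.010 (without control replicate 2; -0.0065 without knockout replicate 2) to 0.11 and Elf2 from -0.046 (without knockout replicate 2) to 0.17. With the length of the longest transcript in place of the exon union, the share of ETS1 in the members' summed TPM was 38.9% in place of 37.1% in sh-NC cells, and that of Ets1 54.9% in place of 48.1% in mouse controls. By that length FLI1 was at 61.8 and 62.6 TPM with sh-NC and did not overlap GABPA at 53.7 and 45.5. In mouse controls Elf1 (161 to 216 TPM) then lay wholly above Elf4 (70.7 to 131 TPM). With at least 1 count in any library, the partners of ETS factors had 0 called higher and 1 lower in J.gamma1 cells, and the genes with ETS sites 3 and 1. Of the mouse members, Erg had the fewest counts, at 10 to 42 a library.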
